A study of Mus musculus with 28 samples.

Results

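The 9 genes described here encode proteins that set up the apical and basal sides of epithelial cells: Shroom3, Crb3, Pard3, Pard6b, Prkcz, Prkci, Llgl2, Scrib and Dlg1. Their regulatory regions were followed by ChIP-seq of H3K27ac, a histone mark of active promoters and enhancers. A peak was assigned to one of them when its summit lay within 100 kb of a start site of that gene and nearer to it than to a start site of any other protein-coding gene. By this rule 1685 of 893719 peaks, merged into 160 of 89050 regions, belonged to the 9 of 22372 protein-coding genes. A peak was called promoter when its summit fell between 1000 bases upstream and 100 bases downstream of a start site, and distal otherwise.

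All libraries came from a subclone of NMuMG, a mouse mammary gland epithelial line, so the data describe 1 cloned line in culture. There were 3 libraries for each of 5 conditions: untreated cells (0h), cells given 2 ng/ml TGF-β with the solvent DMSO for 4 or 24 h (4h, 24h), and cells given the same TGF-β after pretreatment with 25 µM UO126, an inhibitor of ERK signalling that acts on MEK, for the same times (ERKi 4h, ERKi 24h). The comparisons of 4h and 24h with 0h therefore ask how the mark moved during epithelial to mesenchymal transition (EMT), and those of ERKi with DMSO at the same time ask what the inhibitor altered. No library received UO126 without TGF-β. The 0h samples are labelled only as untreated, so any effect of the solvent DMSO cannot be told apart from that of TGF-β in the comparisons with 0h.

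Apical-basal polarity rests on modules that hold each other in place. The Crumbs complex and the Par complex occupy the apical side and the junctions of a cell, and the Scribble module of Scrib, Dlg and Lgl proteins occupies the basolateral side. Shroom3 binds actin at apical junctions and drives apical constriction, the narrowing of the apical surface. Epithelial cells are known to lose this polarity during EMT.

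The lists held 50445 to 69180 peaks per library. The level of a peak is given as the scaled pileup, the number of reads stacked at its summit, recovered from the fold enrichment and -log10 p in the lists and divided by a scaling factor of that library. Promoter peaks of the epithelial genes Cdh1 and Krt8 were present in 15 of 15 libraries. Of the 8 epithelial markers checked, Epcam, Grhl2 and Esrp1 had no peak overlapping their promoter in any library, and of these Epcam and Grhl2 had other peaks within 100 kb in all 15 libraries and Esrp1 in 0. Krt18 had a promoter peak in 1 library. The other two did not stay level: the mean promoter pileup of Krt19 was 158 at 0h and 73.4 at 24h, where 2 of 3 libraries had a peak, and that of Cldn4 was 0 at 0h and 145 at 24h. None of the 6 blood and endothelial markers had a promoter peak. Of the 5 fibroblast markers, Col1a1, Pdgfra and Pdgfrb had one in 7, 3 and 1 libraries and Col1a2 and Thy1 in none. The summed promoter pileup of the fibroblast markers was at most 10.19 at 0h, ran from 0 to 88.2 at 4h, 17.1 to 103 at 24h, 0 to 61.9 at ERKi 4h and 0 to 56.6 at ERKi 24h. That of the epithelial markers was 455 to 716 at 0h, 485 to 618 at 4h, 486 to 694 at 24h, 424 to 564 at ERKi 4h and 538 to 681 at ERKi 24h. The epithelial sum thus joins opposite differences of Krt19 and Cldn4. The fibroblast level moved with the conditions compared below, and the part of either list in the results was not tested. In such bulk samples fewer cells with a mark and less of the mark per cell cannot be told apart.

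The regions lay mostly inside the genes. Of the 160 member regions, 126 had their summit in an intron, 30 between genes, 2 in an exon and 2 in a UTR, and 130 lay within the gene they were assigned to. Shroom3 had the most, with 51 regions on chromosome 5, followed by Pard3 with 41, Dlg1 with 23, Pard6b with 18, Prkci with 14, Prkcz with 6, Llgl2 with 5 and Crb3 and Scrib with 1 each. A peak was called in all 15 libraries in 45 of the 160 regions (28.1%), beside 26934 of all 89050 regions (30.2%), and 29 were called in a single library. Only the regions present in all libraries entered the test of single regions.

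The promoter of each gene was measured by the highest peak that overlapped it. This covered 8 genes in all 15 libraries. Shroom3 lacked such a peak in 0h replicate 2 and ERKi 4h replicate 2 and was not tested. The stricter definition, with the summit itself inside the promoter, left only Pard6b and Prkcz, since the summits of the other genes fell inside and outside the window in different libraries. Changes were tested with limma across all genes with a promoter peak in every library, and adjusted p values are Benjamini-Hochberg values over all of them. Since libraries with the same replicate number deviated together, a fit with the replicate number as a block is given wherever it alters a call.

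**Figure D1:**
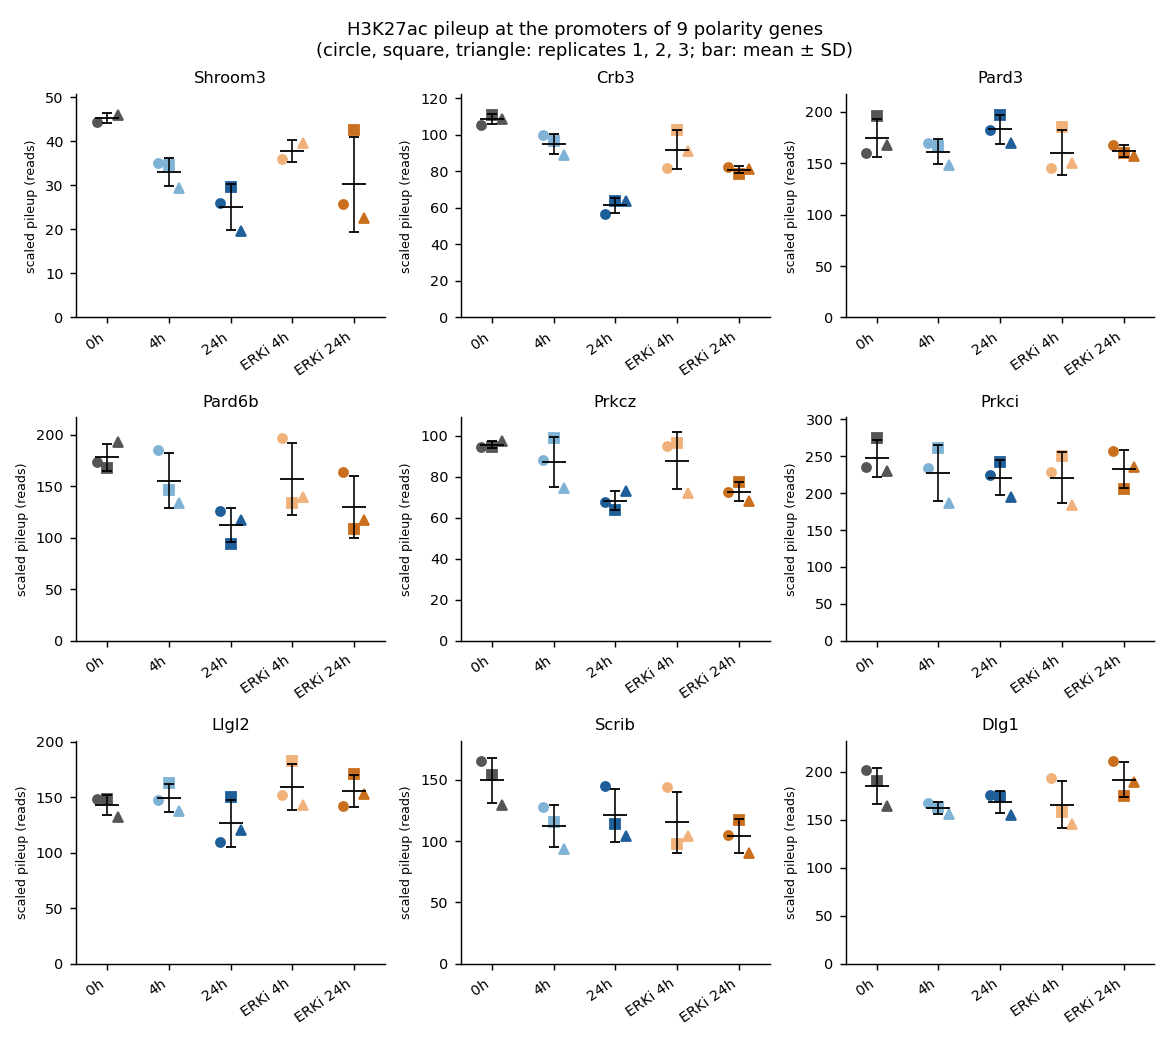
Scaled H3K27ac pileup (reads, y axis) of the highest peak overlapping the promoter of each gene in the 15 libraries, by condition (x axis); symbols are replicates and bars the mean ± SD. Crb3 at 24h lay between 56.5 and 63.9 reads, below all 0h libraries, while the 0h and 24h groups of Pard3 and Prkci overlapped.

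Crb3 encodes the epithelial Crumbs protein, a transmembrane organiser of the apical membrane. The gene (ENSMUSG00000044279) lies at chr17:57198528-57205341 on the plus strand of mm9, and its only region, chr17:57201385-57202462, covers a cluster of its start sites with the summit in a UTR.

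The Crb3 peak held 106, 111 and 108 reads in the 0h libraries, 99.7, 96.6 and 89.1 at 4h and 56.5, 63.9 and 63.7 at 24h. With the inhibitor it held 81.6, 103 and 91.3 reads at ERKi 4h and 82.2, 78.5 and 81.4 at ERKi 24h. The 24h libraries were thus all below those of 0h and of ERKi 24h, and ERKi 24h was all below 0h. Crb3 was 0.566 times its 0h level at 24h (log2 -0.82 ± 0.15 SE, n = 3 and 3, adjusted p = 0.0103, limma over 9989 promoters), and it was the only member called by this test. It was lower in 3 of 3 replicate numbers. The inhibitor left it 1.32 times higher at 24h (log2 0.40 ± 0.15 SE, limma adjusted p = 0.297), a difference that passed only with the replicate block (limma adjusted p = 0.0319). Among all promoters 0.45% were called lower at 24h without the block and 4.91% with it, and 4.06% were called higher with ERKi at 24h with the block.

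The Par complex is formed by the scaffold Pard3, the adaptor Pard6b and the atypical protein kinases C encoded by Prkcz and Prkci. Pard6b (ENSMUSG00000044641, chr2:167906504-167926703, plus strand) had its promoter peak at chr2:167905315-167906024, upstream of its only annotated start site, between genes. The 300 bases around that summit are shown because they hold an E-box, CAGGTG, a letter sequence bound by Snail and Zeb factors. It stands in capitals, at chr2:167905687-167905986, plus strand, mm9.

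Pard6b: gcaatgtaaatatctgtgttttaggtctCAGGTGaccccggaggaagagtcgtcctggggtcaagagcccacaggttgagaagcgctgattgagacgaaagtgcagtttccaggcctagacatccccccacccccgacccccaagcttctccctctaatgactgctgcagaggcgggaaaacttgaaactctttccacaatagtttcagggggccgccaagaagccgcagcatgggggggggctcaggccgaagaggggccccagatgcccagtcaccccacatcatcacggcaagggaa

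This peak held 173, 168 and 193 reads at 0h, 122, 147 and 134 at 4h, and 80.8, 93.6 and 117 at 24h. With ERKi it held 118, 133 and 140 reads at 4h and 98.4, 108 and 117 at 24h. All 4h libraries and all 24h libraries lay below those of 0h, and the ERKi groups overlapped the DMSO groups of the same time. By this peak the Pard6b promoter fell to 0.541 of its 0h level at 24h (log2 -0.89 ± 0.14 SE, limma adjusted p = 0.00673), where 0.544% of 3307 promoters were called lower. By the highest peak overlapping the promoter the fall was smaller, at log2 -0.67 ± 0.19 SE, and passed only with the replicate block (limma adjusted p = 0.126 without and 0.00108 with it).

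Prkcz (ENSMUSG00000029053, chr4:154634238-154735470, minus strand) had a promoter peak of 94.6, 94.5 and 97.5 reads at 0h and 67.8, 63.9 and 73.0 at 24h. The 2 groups did not overlap. The difference, log2 -0.49 ± 0.17 SE, passed only with the replicate block (limma adjusted p = 0.282 without and 0.0252 with it). At ERKi 24h the peak held 72.7, 77.2 and 68.2 reads, overlapping those of 24h.

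The other atypical kinase gene, Prkci, and the scaffold gene Pard3 were not called at their highest overlapping promoter peak. Prkci, with 247 ± 24.5 reads at 0h (SD, n = 3), had 221 ± 23.6 at 24h, and Pard3 had 175 ± 18.9 at 0h and 183 ± 13.9 at 24h. Neither passed in any of the 4 comparisons, with or without the block. The Pard3 promoter peak was lower at ERKi 24h (168, 160 and 157 reads) than at 24h (182, 197 and 170) in 3 of 3 replicate numbers, a log2 difference of -0.18 ± 0.12 SE that was not called. A weaker Prkci region at an alternative start site, chr3:30936473-30937698 in intron 10, is named after its values were seen. It did not enter the main test of single regions, since 0h replicate 1 had no peak there. It held 42.5 and 34.0 reads in the other 0h libraries, 84.8, 90.6 and 99.2 at 4h and 99.9, 95.8 and 129 at 24h. With ERKi it held 51.5, 63.0 and 66.9 reads at 4h and 107, 102 and 116 at 24h. All 4h and 24h libraries lay above the 0h libraries with a peak, and those of ERKi 4h lay between.

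By the highest overlapping peak no promoter of the Scribble module was called in any of the 4 comparisons, with or without the block. Fitted as single regions, the start of Scrib (at 4h, with the block) and an alternative start of Llgl2 (at 24h) were called lower, as described further on. Scrib, a basolateral scaffold, had 149 ± 18.3 reads at 0h and 121 ± 21.5 at 24h, and Dlg1, another PDZ scaffold, had 185 ± 19.1 and 168 ± 11.5. The highest peak overlapping a promoter of Llgl2, the epithelial Lgl gene, held 143 ± 9.27 reads at 0h, 127 ± 21.3 at 24h and 156 ± 14.5 at ERKi 24h. At 4h, and in the comparison of ERKi 4h with 4h, no member promoter was called with or without the block by the highest overlapping peak. Of all promoters 0.06% were called at 4h without the block and 1.3% with it. Comparing ERKi 4h with 4h, these shares were 0% and 0.03%, so the absence of calls tells little about the members. Where the Shroom3 promoter peak was present it held 44.4 and 46.0 reads at 0h, 29.4 to 34.98 reads at 4h, 26.1, 29.7 and 19.5 at 24h and 25.7, 42.5 and 22.5 at ERKi 24h.

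Most of the peaks of these genes were distal. The distal signal of a gene, the sum of the pileups of its distal peaks, was tested for 8 genes with a distal peak in all libraries, among 8850 such genes. Crb3 was not among them, since the peak counted as distal in 10 libraries is the start site peak described above. Scrib was among them, although its only region is that of its start site, so its distal sum is drawn from peaks of that region. The counts and the median of the 8 genes below include it.

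**Figure D2:**
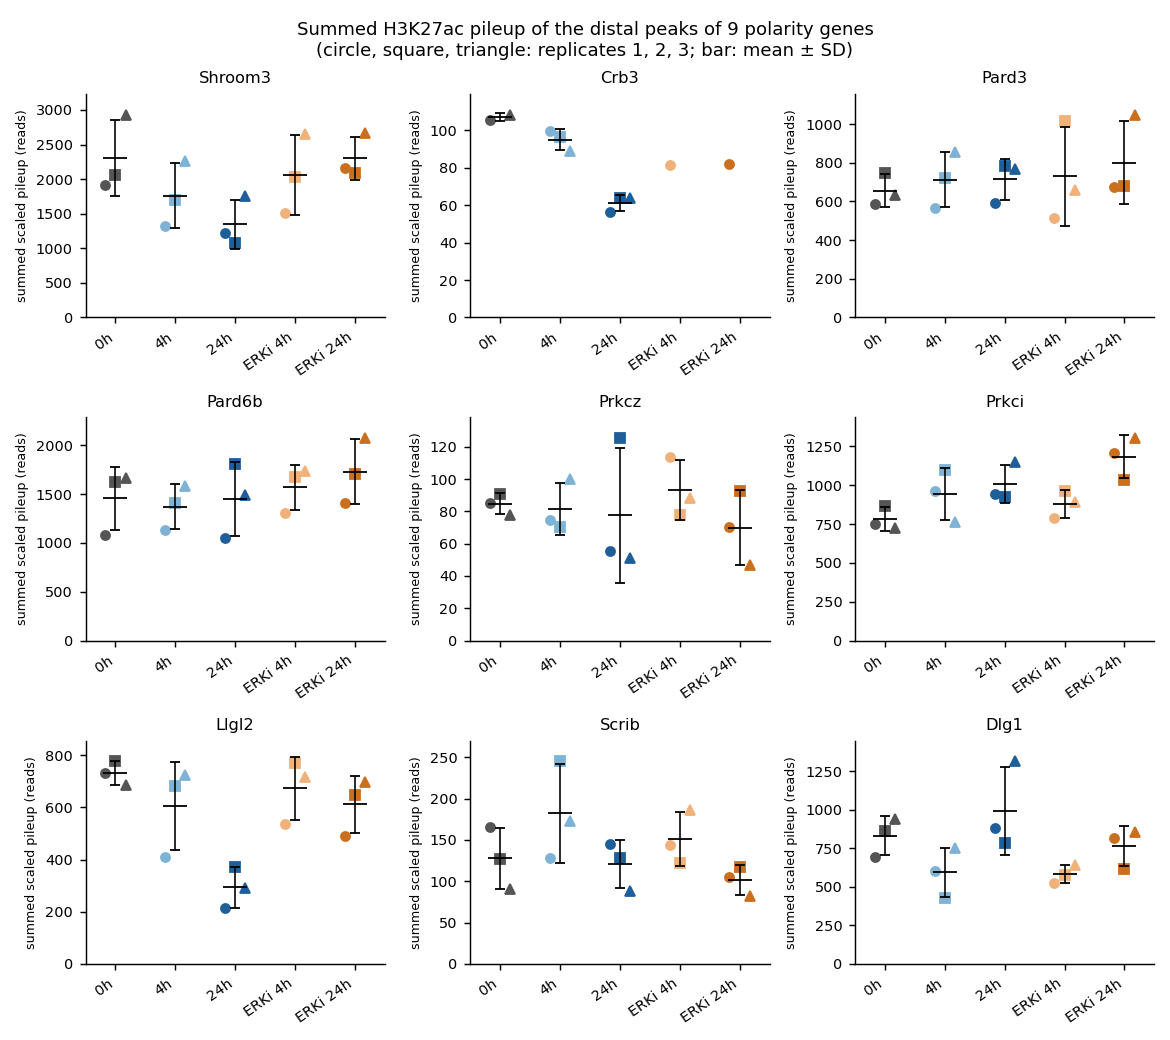
Summed scaled pileup (reads, y axis) of the distal peaks of each gene in the 15 libraries by condition (x axis), with replicates as symbols and the mean ± SD as bars. Llgl2 at 24h, between 215 and 373 reads, lay below every other condition, and Shroom3 at 24h lay below every ERKi 24h library.

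Llgl2 encodes the Lgl protein of epithelia, which keeps the Par complex out of the basolateral side. The gene (ENSMUSG00000020782) lies at chr11:115685363-115717094 on the plus strand. Its distal peaks summed to 731, 778 and 687 reads at 0h and 215, 373 and 291 at 24h. At 4h the sums were 411, 681 and 723, so that 1 of 3 libraries was far below 0h. With the inhibitor they were 536, 769 and 715 at ERKi 4h and 490, 646 and 699 at ERKi 24h. The 24h libraries were thus below all libraries of every other condition. Llgl2 fell to 0.391 of its 0h level at 24h (log2 -1.36 ± 0.25 SE, limma adjusted p = 0.00119), lower in 3 of 3 replicate numbers. It was 2.12 times higher with ERKi than with DMSO at 24h (log2 1.08 ± 0.25 SE, limma adjusted p = 0.0228). Without 24h replicate 1, ERKi 24h replicate 2 or ERKi 24h replicate 3 this second difference was 0.88, 1.04 or 0.98 on the log2 scale and missed the threshold. The sums did not hold the same peaks. At an alternative start site, chr11:115691775-115694499, the highest peaks of 24h (46.0, 76.4 and 73.0 reads) had promoter summits and were left out. Those of ERKi 24h (90.3, 94.0 and 131 reads) had summits outside the promoter and counted as distal. At 0h only that of replicate 1 did so. How much this added to the differences was not tested.

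Shroom3 (ENSMUSG00000029381, chr5:93112461-93394344, plus strand) lost distal signal at 24h, and its sums were higher with ERKi. They were 1910, 2063 and 2932 reads at 0h, 1325, 1705 and 2257 at 4h and 1216, 1076 and 1751 at 24h. They were 1505, 2030 and 2655 at ERKi 4h and 2154, 2089 and 2661 at ERKi 24h. Replicate 3 was the highest in each of the 5 conditions. The 24h libraries lay below all 0h and all ERKi 24h libraries, while 4h overlapped both 0h and ERKi 4h. At 24h Shroom3 was at 0.583 of its 0h level (log2 -0.78 ± 0.26 SE, limma adjusted p = 0.0472, and 0.000288 with the replicate block). This call is close to the threshold without the block, where it was lost on leaving out any of 10 of the 15 libraries. These were all libraries of 0h and of ERKi 24h, 24h replicates 1 and 2, 4h replicate 2 and ERKi 4h replicate 2, and the log2 difference was then between -0.90 and -0.59. ERKi left Shroom3 1.74 times higher than DMSO at 24h (log2 0.80 ± 0.26 SE), which passed only with the block (limma adjusted p = 0.0936 without and 0.00106 with it). This comparison and that with 0h share the 24h libraries. At 4h the fall of log2 -0.39 also passed only with the block (limma adjusted p = 0.046, n = 3 and 3).

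These 2 genes were the members called lower at 24h, of 8 tested, beside 5.69% of all genes called lower and 14.5% called higher. With the block the same count of 2 stood beside 11.5% of genes. With ERKi at 24h, 1 member was called higher without the block and 2 with it, where 2.03% and 8.89% of all genes were. At 4h, 0 members were called beside 3.34% of genes in either direction, and with the block 1 was called lower beside 2.44%. The median log2 difference of the 8 genes at 24h was -0.04 and that of all genes 0.04, and the other 6 genes were not called. Comparing ERKi 4h with 4h, no member was called with or without the block, beside 0.113% and 1.05% of all genes, so the count of 0 tells little about the members.

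The other 6 genes were not called in any distal comparison, with or without the block. Their log2 differences between 24h and 0h ran from -0.25 for Prkcz to 0.36 for Prkci. Prkci had 782 ± 75.8 reads at 0h and 1006 ± 122 at 24h (SD, n = 3), in groups that did not overlap. These sums did not hold the same peaks. The start site peak of Prkci had a promoter summit in 0h replicate 3 (230 reads) and was left out there. It counted as distal in the other 0h libraries and in all of 24h (225, 242 and 195 reads). Whether the groups stay apart without it was not tested. Dlg1 had 831 ± 126 reads at 0h, 593 ± 161 at 4h and 994 ± 284 at 24h, a high value in 24h replicate 3 (1316) widening that group. The start site peak of Dlg1 counted as distal in 0h replicate 2 and in 24h replicates 2 and 3. It was left out of the other sums of these conditions. Pard6b, whose promoter peak fell, had 1455 ± 323 distal reads at 0h and 1450 ± 376 at 24h. Pard3 had 656 ± 83.2 and 714 ± 105 reads, with overlapping groups.

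Single regions showed where in the genes these differences lay. Of the 45 member regions with a peak in every library, 8 were lower and 1 was higher at 24h than at 0h, beside 6.55% and 10.7% of all 26934 regions. With the replicate block 17 were lower and 5 higher, beside 17.2% and 18.7%. The median log2 difference was -0.22 for the member regions and -0.03 for all regions. Of the 45 member regions 33 had a negative value, all 11 of Shroom3 among them. By fold enrichment over the local background these medians were 0.08 and -0.02, and 26 member regions had a positive and 19 a negative value. With the block the lower regions were 7 of 11 in Shroom3, 3 of 4 in Llgl2, 3 of 8 in Pard6b and 1 each in Crb3, Dlg1, Prkci and Prkcz. The higher ones were 2 of 8 in Pard3 and 1 each in Dlg1, Pard6b and Prkci.

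**Figure D3:**
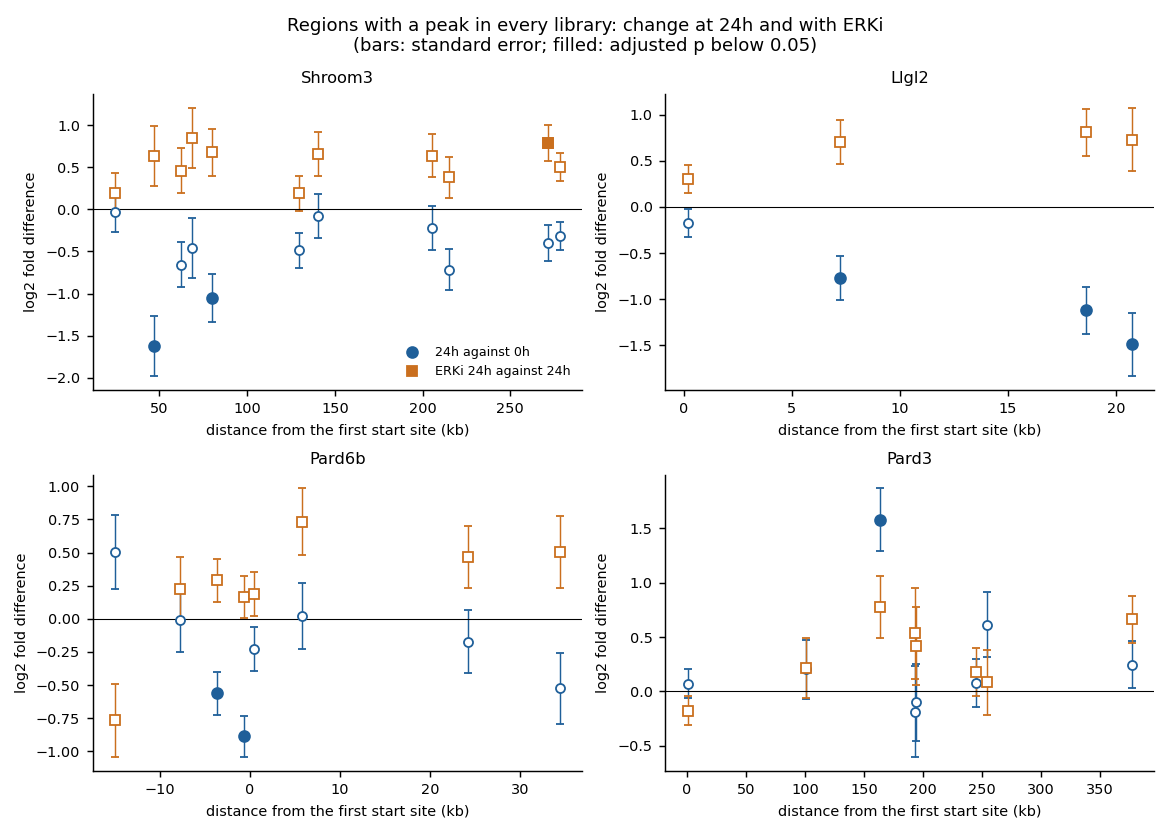
Log2 fold difference in pileup (y axis, with standard errors) against distance from the first start site in kb (x axis). Shown is every region of Shroom3, Llgl2, Pard6b and Pard3 with a peak in all libraries. Circles compare 24h with 0h and squares ERKi 24h with 24h, 2 comparisons that share the 24h libraries; all 11 Shroom3 regions lay below 0 in the first and above 0 in the second, and filled symbols passed the test without the block.

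The Llgl2 regions were chained through its 5′ introns. The region 175 bases past the first start site, in intron 1, had the smallest difference, a log2 value of -0.17 that was not called. The next, chr11:115691775-115694499, reaches an alternative start site within the gene and held 87.4, 110 and 133 reads at 0h and 46.0, 76.4 and 73.0 at 24h (log2 -0.77 ± 0.24 SE, limma adjusted p = 0.0337). Without 0h replicate 2, 0h replicate 3 or 24h replicate 1 that value was between -0.76 and -0.54 and was not called. Farther in, the region chr11:115700531-115701575 of intron 2 was called in every library of 0h and 4h, in 0 of 3 of 24h and in 2 of 3 of either ERKi condition.

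Of the regions with a peak in all libraries, the pair farther into the gene fell most. The one at chr11:115702780-115704829, in intron 2, held 133, 105 and 148 reads at 0h, 85.7, 98.9 and 129 at 4h and 43.4, 61.6 and 75.0 at 24h. With the inhibitor it held 81.6, 120 and 162 reads at ERKi 4h and 81.5, 104 and 126 at ERKi 24h. All 24h libraries were below all libraries of every other condition. The fall at 24h was log2 -1.12 ± 0.26 SE (limma adjusted p = 0.00514). The one at chr11:115705048-115706291, in intron 4 by its summit, fell from 117 ± 28.0 to 44.5 ± 20.0 reads (log2 -1.49 ± 0.34 SE, limma adjusted p = 0.00518). With the block all 4 Llgl2 regions were called higher with ERKi at 24h in reads, by log2 0.31 to 0.81, and none without it. Their mean fold enrichment went from 9.85 at 24h to 8.75 at ERKi 24h in intron 1. It went from 4.10 to 4.36 at the alternative start site, 3.94 to 3.73 in intron 2 and 2.95 to 2.69 in intron 4. The sequence at the summit of the intron 2 region is shown from chr11:115703817-115704116, plus strand, mm9. Both the fall and the difference with ERKi were seen there in reads. None of the 4 motifs searched was in it, so it holds no capitals.

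Llgl2: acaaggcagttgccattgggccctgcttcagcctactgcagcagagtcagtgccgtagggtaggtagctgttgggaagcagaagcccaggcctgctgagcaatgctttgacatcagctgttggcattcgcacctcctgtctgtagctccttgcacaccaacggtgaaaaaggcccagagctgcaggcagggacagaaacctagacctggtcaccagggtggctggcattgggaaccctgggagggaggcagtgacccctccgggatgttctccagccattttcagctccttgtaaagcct

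**Figure D4:**
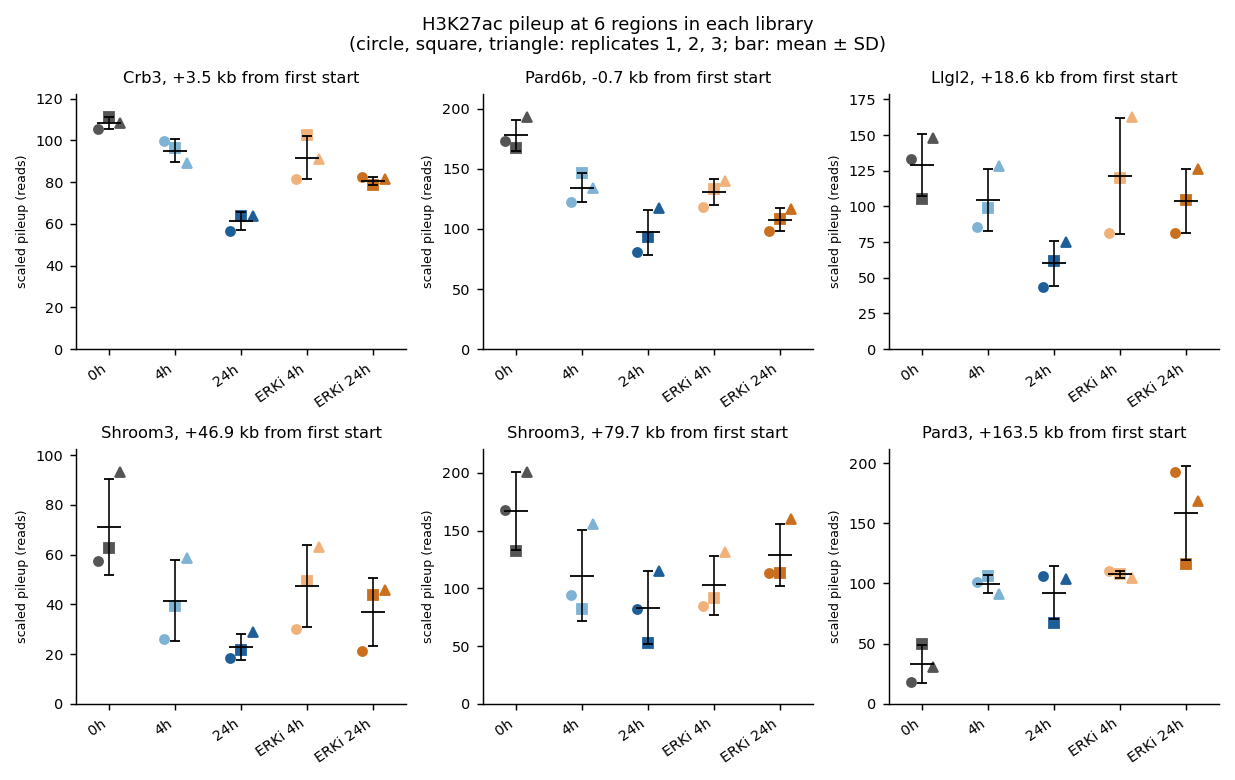
Scaled pileup (reads, y axis) at 6 regions in each library by condition (x axis), with replicates as symbols and the mean ± SD as bars. At Llgl2 and Crb3 all 24h libraries lay below those of every other condition. At Pard6b and both Shroom3 regions the 24h mean was the lowest of the 5 conditions. The 24h libraries there lay below those of 0h but not below all others. The Pard3 region was lowest at 0h.

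Among Shroom3 regions, all 11 tested had a negative log2 value at 24h in reads, from -1.63 to -0.03. All 11 had a positive one with ERKi at 24h, from 0.19 to 0.85. By mean fold enrichment over the local background this was not so. Most of the 11 were higher at 24h than at 0h (1 from 4.28 to 6.04), and others lower (1 from 4.21 to 3.94). Most were lower at ERKi 24h than at 24h (1 from 6.04 to 4.65), and others higher (1 from 4.78 to 6.12). Without the block 2 were called lower. The first of them, chr5:93157614-93159727, lies in intron 1, 46878 bases past the first start site. It held 57.5, 62.6 and 93.1 reads at 0h, 26.2, 39.3 and 58.8 at 4h and 18.2, 21.7 and 28.8 at 24h, falling to 0.324 of its 0h level (log2 -1.63 ± 0.36 SE, limma adjusted p = 0.0036). At ERKi 4h it held 30.1, 49.4 and 62.9 reads and at ERKi 24h 21.3, 43.8 and 45.7, so the ERKi 24h libraries overlapped those of 24h and stayed below 0h.

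The second, chr5:93190872-93192603, lies in the same intron 79711 bases past the first start site. It held 168, 132 and 201 reads at 0h, 94.5, 82.2 and 156 at 4h, and 82.5, 52.5 and 115 reads at 24h. With ERKi it held 84.5, 91.4 and 132 reads at 4h and 113, 113 and 160 at 24h. Its fall at 24h was log2 -1.05 ± 0.28 SE (limma adjusted p = 0.0138). Without 0h replicate 3 it was -0.91 and without 24h replicate 2 -0.76, and neither was called. With ERKi this region was higher than with DMSO in 3 of 3 replicate numbers at 24h and in 1 of 3 at 4h. Here the effect of ERKi at 24h exceeded that at 4h by log2 0.76 with the block (limma adjusted p = 0.0181 for the interaction, and 0.981 without the block). It was 1 of 45 member regions called higher by the interaction with the block, beside 1.98% of all regions, a share near the background. The sequences of both regions are shown because they were the Shroom3 regions called lower without the block. The first, from chr5:93159189-93159488, holds none of the 4 motifs, and the second, from chr5:93192022-93192321, holds 2 E-boxes in capitals, 1 read on each strand. Both sequences are printed from the plus strand of mm9.

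Shroom3, 46878 bases: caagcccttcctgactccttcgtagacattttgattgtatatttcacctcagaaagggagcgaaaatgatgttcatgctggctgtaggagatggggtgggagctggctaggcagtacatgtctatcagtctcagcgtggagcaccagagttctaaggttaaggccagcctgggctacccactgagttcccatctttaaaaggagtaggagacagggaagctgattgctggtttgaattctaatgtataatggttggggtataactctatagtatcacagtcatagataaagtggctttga

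Shroom3, 79711 bases: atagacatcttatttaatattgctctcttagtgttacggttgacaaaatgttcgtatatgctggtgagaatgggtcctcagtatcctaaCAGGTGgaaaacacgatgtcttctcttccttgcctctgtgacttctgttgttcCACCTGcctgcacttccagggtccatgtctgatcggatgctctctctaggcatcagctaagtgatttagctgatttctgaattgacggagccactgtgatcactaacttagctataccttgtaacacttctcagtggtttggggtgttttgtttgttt

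The Shroom3 region called higher with ERKi at 24h without the block, chr5:93382797-93384920 in intron 8, held 39.96, 54.8 and 43.2 reads at 24h and 76.4, 77.2 and 82.2 at ERKi 24h. All ERKi 24h libraries lay above those of 24h and of 0h (55.3, 53.1 and 73.4). The difference was log2 0.79 ± 0.21 SE (limma adjusted p = 0.0301). Leaving out 24h replicate 1, 24h replicate 3 or any of the 3 ERKi 24h libraries gave 0.69 to 0.81 and lost the call. This was the only member region called without the block, beside 2.99% of all regions, and with the block 19 were called higher and 3 lower, beside 13.3% and 14%. Of these 19, 8 were in Shroom3, 4 each in Llgl2 and Pard6b, 2 in Pard3 and 1 in Crb3. The 3 lower ones were 2 regions upstream of Dlg1 and 1 upstream of Pard6b.

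At Pard6b the regions called lower without the block lay before the start site. Beside the promoter peak, the region chr2:167902518-167904825, between genes and at -3693 bases from the start site, fell from 186, 196 and 238 reads at 0h to 116, 147 and 157 at 24h (log2 -0.56 ± 0.16 SE, limma adjusted p = 0.0195). Without 0h replicate 3 or 24h replicate 1 this value was -0.46 or -0.43 and was not called. A region farther upstream, at -14981 bases, went the other way with the block, higher at 24h by log2 0.50 and lower with ERKi at 24h by log2 -0.77.

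Pard3 held the 1 member region called higher at 24h. This region of intron 2, chr8:129750448-129752735, rose from 18.2, 49.6 and 30.7 reads at 0h to 101, 106 and 90.9 at 4h and 106, 67.3 and 104 at 24h. It stayed high with the inhibitor, at 111, 108 and 104 reads at ERKi 4h and 192, 116 and 168 at ERKi 24h. All libraries given TGF-β were above all 0h libraries. The rise was log2 1.71 ± 0.29 SE at 4h (limma adjusted p = 0.00203) and 1.58 ± 0.29 SE at 24h (limma adjusted p = 0.000797). It was the only member region called at 4h without the block, beside 3.47% of all regions called higher. With the block 3 member regions were called higher and 8 lower at 4h, beside 12% and 5.12%. The 8 lower ones were 3 in Shroom3, 2 each in Dlg1 and Pard6b, its promoter peak among them, and 1 at the start of Scrib. With ERKi the region was higher than with DMSO at 24h by log2 0.78 ± 0.29 SE, which passed only with the block (limma adjusted p = 0.116 without and 0.0128 with it). Its summit lies in the gene (ENSMUSG00000025812, chr8:129587793-130136186, plus strand) 163461 bases past the first start site, and the sequence there, chr8:129751104-129751403, plus strand, mm9, is shown as that of the 1 region called higher among the 45 tested. It holds none of the 4 motifs.

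Pard3: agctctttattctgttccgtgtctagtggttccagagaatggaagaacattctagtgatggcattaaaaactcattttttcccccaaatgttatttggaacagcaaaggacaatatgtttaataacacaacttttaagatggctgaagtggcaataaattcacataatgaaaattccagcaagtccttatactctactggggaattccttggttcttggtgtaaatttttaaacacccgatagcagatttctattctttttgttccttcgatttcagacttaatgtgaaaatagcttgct

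Comparing ERKi 4h with 4h, 0 of the 45 member regions were called with or without the block, beside 0.23% and 4.09% of all regions. The median log2 difference was 0.04 over the member regions and 0.01 over all regions.

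Regions that were not present in every library were read by their calls alone. Between 0h and 24h, 8 member regions were lost (3 of 3 libraries at 0h and 0 of 3 at 24h) and 3 were gained, of 160, beside 2.07% of all regions lost and 4.91% gained. Of the 8 lost, 5 were in Shroom3, 2 in Pard3 and 1 in Llgl2. Those of Pard3, chr8:129640135-129640856 and chr8:129670694-129671343, were weak, with at most 23.0 reads in any 0h library. The strongest in Shroom3 were chr5:93190174-93190498, called at 0h with 83.7, 67.3 and 117 reads and in no other library, and chr5:93189523-93190053, called with 83.0, 76.8 and 116 reads at 0h. Both lie just before the second intron 1 region shown above. The latter was also called in 1 library of 4h, 2 of ERKi 4h and 1 of ERKi 24h. The region chr5:93270147-93271377 in intron 2 was called in 3 of 3 libraries of each condition but 24h, where it was called in none. It was the 1 member region regained with ERKi at 24h, beside 1.49% of all regions, and 1 Pard3 region, chr8:129611667-129612577, was lost with ERKi at 24h, beside 1.21%.

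The 3 regions gained at 24h were 1 each in Dlg1, Prkci and Pard3. The Prkci region, chr3:30937926-30938600 in an intron, was called in 0 of 3 libraries at 0h and in all 12 libraries of the other conditions, with 42.9, 60.8 and 26.6 reads at 4h and 53.0, 51.3 and 43.2 at 24h. The Dlg1 region, chr16:31728424-31729120, held 25.2, 19.4 and 21.6 reads at 24h, and the Pard3 region, chr8:129972471-129974016, held 26.9, 16.0 and 32.9. By 4h, 2 member regions were gained, the one in Prkci and chr5:93180070-93180724 in Shroom3, and 1 Shroom3 region was lost, beside 1.15% and 0.396% of all regions. With ERKi at 4h, 1 region upstream of Dlg1, chr16:31603720-31604177, was lost, beside 0.314%.

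**Figure D5:**
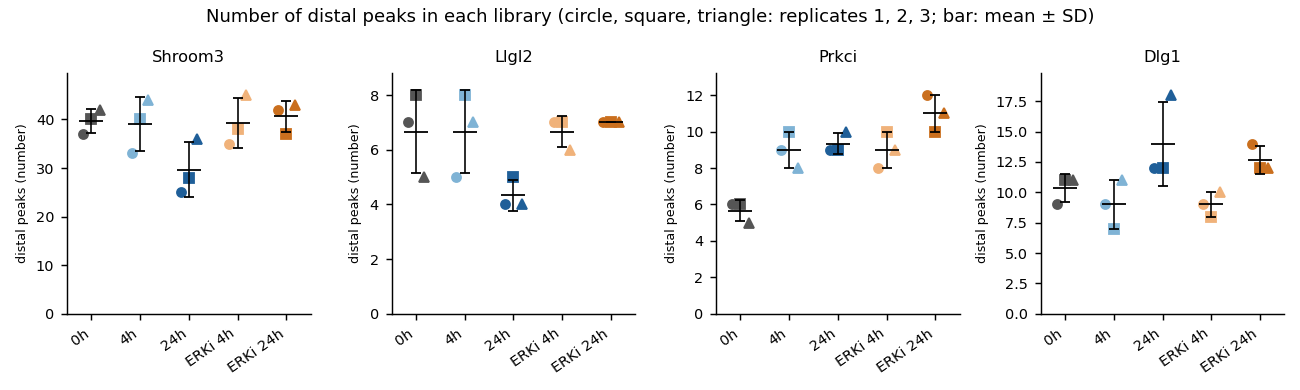
Number of distal peaks (y axis) of 4 genes in each library by condition (x axis), with replicates as symbols and the mean ± SD as bars. Shroom3 had 25 to 36 distal peaks at 24h and 37 to 42 at 0h, and Prkci 5 to 6 at 0h and 8 to 10 at 4h.

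The number of distal peaks differed in both directions. Shroom3 had 37, 40 and 42 at 0h, 33, 40 and 44 at 4h, and 25, 28 and 36 peaks at 24h. With ERKi it had 35, 38 and 45 peaks at 4h and 42, 37 and 43 at 24h. The 24h libraries were below all 0h and all ERKi 24h libraries. Llgl2 had 7, 8 and 5 at 0h, 4, 5 and 4 at 24h and 7 in each ERKi 24h library, so that 24h overlapped 0h at 1 value and not ERKi 24h. Prkci had 6, 6 and 5 distal peaks at 0h, fewer than the 9, 10 and 8 at 4h and the 9, 9 and 10 at 24h. Dlg1 had 9, 11 and 11 at 0h and 12, 12 and 18 at 24h. Its start site peak counted as distal in 24h replicates 2 and 3 and 0h replicate 2, and as promoter in the other libraries of these conditions. Whether the Dlg1 groups stay apart without that peak was not tested. The exact two-sided permutation test gave p = 0.1 for each of these separated groups, the smallest value that 3 against 3 libraries allow, so none could pass 0.05. Among all 14315 genes with a distal peak, 4.12% had separated groups that were lower and 12.1% higher at 24h, 4.07% were higher at 4h and 4.04% higher with ERKi at 24h. At 24h 1 of the 9 genes was lower (Shroom3) and 2 were higher, at 4h 1 was higher (Prkci), and with ERKi at 24h 2 were higher (Shroom3 and Llgl2).

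The differences above are in reads, and they did not hold as fold enrichment over the local background. By fold enrichment none of the 8 member regions lower at 24h was called lower, and neither the Pard3 region (log2 0.39 at 24h, limma adjusted p = 0.149) nor the Pard6b promoter (log2 -0.36, limma adjusted p = 0.365) was called. In all 8 member regions called lower at 24h the local background fell as well, to between 0.314 and 0.744 of its 0h mean, while the pileup was at 0.322 to 0.679. At the Llgl2 region of intron 2 the scaled background was 38.4 to 56.2 reads at 0h and 9.12 to 18.4 at 24h. Its mean fold enrichment rose from 2.74 to 3.94 between 0h and 24h, and by fold enrichment this region was higher at 24h (log2 0.52, limma adjusted p = 0.0115). By fold enrichment neither Llgl2 (log2 -0.01) nor Shroom3 (log2 -0.22) passed the test of distal signal at 24h. Scaling the libraries to their background in place of the shared regions kept the directions and ended 3 calls: the Pard6b promoter (limma adjusted p = 0.172), Shroom3 distal signal at 24h (limma adjusted p = 0.2) and Llgl2 distal signal with ERKi at 24h (limma adjusted p = 0.104). It also ended those of 4 regions, 2 of Shroom3 and 1 each of Llgl2 and Pard6b. Which control entered the local background is not given in the sources used here.

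Other polarity genes were read from a list of 30. Of these, 20 had a promoter peak in all libraries and 9 had none in any, among them Crb1, Crb2, Pard6g and Frmd4a. None of the 20 promoters was called in any comparison without the block. Of all promoters 1.06% were called at 24h and 0.801% with ERKi at 24h, so the count of 0 tells little about these genes. With the block 1 was higher and 1 lower with ERKi at 24h, beside 4.06% and 6.61%. Of 19 with distal signal in all libraries, 5 were called higher and 1 lower at 24h, beside 14.5% and 5.69% of all genes. With the block 5 were higher and 2 lower, the added one being Dlg2, beside 21.7% and 11.5%. Frmd4a, whose protein binds Pard3, rose from 140, 182 and 230 reads at 0h to 813, 772 and 1085 at 24h (log2 2.29 ± 0.26 SE, limma adjusted p = 3.5e-05). With ERKi it held 314, 250 and 333 reads at 24h, lower than with DMSO by log2 -1.57 ± 0.26 SE (limma adjusted p = 0.00329). Frmd4a thus moved opposite to Llgl2 in both comparisons. Mark3, a polarity kinase, and Tiam1, an activator of Rac, were higher at 24h by log2 1.13 and 1.26. Inadl, a scaffold of the Crumbs complex, fell from 239, 287 and 294 reads at 0h to 104, 110 and 153 at 4h (log2 -1.17 ± 0.26 SE, limma adjusted p = 0.0238) and to 113, 201 and 93.5 at 24h (log2 -1.08 ± 0.26 SE, limma adjusted p = 0.00852). At ERKi 24h it held 88.1, 112 and 127 reads, overlapping 24h, while for Llgl2 these groups did not overlap. The median log2 difference of the 19 genes at 24h was 0.08.

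The genes whose distal signal was most like that of Shroom3 across the 15 libraries, among 8849 others, were Sytl2 (Pearson r of the log2 signal 0.91), Fam160a1 (0.91) and Usp12 (0.90). The libraries share replicate numbers and treatments, so these values are a description. Sytl2 had mean sums of 548 reads at 0h, 362 at 24h and 526 at ERKi 24h.

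The 4 motifs were searched on both strands of 300 bases around the summit of each region. They were CAGGTG (Snail and Zeb), TGANTCA (AP-1), AACCNGTT (Grainyhead-like factors) and CCGGAAGT (ETS). The E-box was in 39 of 160 member windows (24.4%) and in 21.2% of all 89050, and the AP-1 motif in 13 (8.12%) and in 10.1%. The Grainyhead-like motif was in 4 (2.5%) and in 2.19%, and the ETS motif in 0 and in 0.592%. By gene the E-box was in 14 of 51 Shroom3 windows, 7 of 18 in Pard6b, 3 of 5 in Llgl2 and 0 of 14 in Prkci. Matches to these letters are a description of the sequence and do not show that a factor was bound.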

How the data were processed

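The data were 15 H3K27ac ChIP-seq peak lists, 3 for each of 5 conditions. RNA-seq (10 samples) and input (3 samples) were not analysed here, so expression of the genes was not examined. The members and lists were chosen with earlier results of these data known. Per the study's methods, Bowtie was used by the authors for alignment to the mm9 build, and MACS2 gave 1 peak list for every library. The deposited fold enrichment is a ratio of pileup to local background within a library, and the deposited -log10 p and -log10 q are the p-value and q-value of each peak. The deposited score was not used. Read totals were not in the lists, so the depth per library is unknown and no counting interval was computed.

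From these values the whole-number pileup was solved within 0.005 of the listed -log10 p for 893694 of 893719 peaks, the remaining 25 being outside the member genes. Pileups were divided by a median-of-ratios factor over the 26934 regions with a peak in all libraries. Start sites and gene models came from GENCODE vM1, and printed sequences from its genome, NCBIM37 (mm9). The sequence of 1 region is not reported here. Log2 values (no pseudocount, since only features with a peak in every library were fitted) were tested with limma 3.58.1 in R 4.3.3 with a mean trend over all features and all 5 conditions. Benjamini-Hochberg adjustment was made within each comparison, at 0.05, over 3307 or 9989 promoters, 8850 genes with distal peaks, or 26934 regions. Use of the highest peak overlapping a promoter was chosen after seeing the data, because the planned measure left 2 member genes. Same-numbered libraries of different conditions deviated together, with a correlation above 0.1 in 30 of 30 pairs (lowest 0.337, mean 0.582), so the replicate block is given where it alters a call. Nothing in the labels says that replicates were separate cultures, so p-values measure the spread between these libraries. Numbers of distal peaks were compared by exact permutation. Genes were named as members, regions as those called without the block, at most 3 per gene and comparison, or as the strongest gained or lost by calls. Other polarity genes were named by the smallest p, at most 4 per comparison. The recovery of pileups and the limma fit without the block were tested on simulated data. Alternatives were other scalings, fold enrichment, a -log10 q of at least 10, a floor for libraries without a peak, wider promoters, a shorter distance, merging within 1000 bp, the replicate block and each library left out.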

Additional observations from a re-analysis of the deposited data

Results flagged for a closer look

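In the Shroom3 intron region 79711 bases past the first start site, the effect of ERKi differed between the times by log2 0.76 in the fit with the replicate block (limma adjusted p = 0.0181 for the interaction, which was the lowest of 45 member regions). With the block 1.98% of all regions were called higher by this interaction, so 1 of 45 is near the share over all regions. The region was higher with ERKi in 3 of 3 replicate numbers at 24h and in 1 of 3 at 4h. Without the block the same interaction was not called (limma adjusted p = 0.981).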

How the results depend on the processing

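By fold enrichment 0 member promoters and 0 members by distal signal were called at 24h, beside 0.756% and 6.67% of all. The 3 member regions called at 24h were all higher, beside 1.64% of all regions called higher and 2.55% lower. By this measure 0 regions were called at 4h, beside 0.141%. With ERKi at 24h 0 members by distal signal and 0 regions were called, beside 0.249% and 0.958%. The log2 difference then turned to 0.32, 0.52 and 0.0027 at 3 Llgl2 regions and to 0.31 at the second Shroom3 region (24h against 0h), to -0.021 at the Shroom3 region of intron 8 (ERKi 24h) and to 0.072 for Shroom3 distal signal at 4h. Scaling to the background moved the median of all regions to -0.14 at 24h and to 0.14 with ERKi at 24h. It called 0 promoters and 1 gene by distal signal at 24h, beside 0.121% of all promoters and 8.82% of all genes. With ERKi at 24h it called 0 genes and 0 regions, beside 0.87% and 1.31%. Keeping only -log10 q of at least 10 left 1 promoter, 7 genes by distal signal and 27 regions of the members to test. At 24h it called 0 promoters and 1 gene by distal signal, beside 1.09% of all promoters and 13.9% of all genes. It called 1 region higher and 3 lower at 24h, beside 6.51% and 3.74% of all regions. With ERKi at 24h it called 0 genes by distal signal, beside 2.63%. By number of distal peaks it left 1 separated gene at 24h and 1 with ERKi at 24h, and the 20000 strongest peaks left 0 at 4h and 1 at 24h. Shares over all genes are not given for these counts of separated genes, so they tell little about the members.

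The replicate block called 2 promoters and 22 regions at 24h, beside 6.35% of all promoters and 35.9% of all regions. At 4h it called 1 gene by distal signal and 11 regions, beside 12.1% and 17.1%. With ERKi at 24h it called 2 genes and 22 regions, beside 19.1% and 27.4%. With the block no other count moved by over 1.5 times. With the block, peaks overlapping the promoter gave 3 promoters lower at 24h and 1 higher with ERKi at 24h, beside 7.74% and 10.7%. Promoters within 2500 bp with the block gave 4 lower and 2 higher of 9, beside 10.8% and 13.7%. By distal signal they gave 2 of 6 members lower at 4h, beside 21.7% of all genes. With ERKi at 24h they gave 2 higher and 1 lower, beside 27.3%. These shares count both directions. A floor for libraries without a peak called 5, 32 and 7 of 87 regions at 4h, 24h and with ERKi at 24h, beside 4.5%, 28.9% and 12.3% of all 48345 regions. It called 1 gene by distal signal at 24h, beside 21.5% of all genes. With floor and block the regions were 19, 49 and 32, beside 12.9%, 42.7% and 26.4%, and 1 with ERKi at 4h, beside 1.97%. Both together called 2 genes by distal signal with ERKi at 24h, beside 16.1%. Quantile normalization called 1 gene by distal signal at 4h and 2 with ERKi at 24h, beside 5.44% and 8.29%. A limit of 50 kb called 1 gene at 24h, beside 18.1%. Merging within 1000 bp called 2 regions with ERKi at 24h, beside 7.92%. Leaving out 1 library gave 1 to 2 genes by distal signal at 24h, 0 to 1 with ERKi at 24h and 0 to 3 regions with ERKi at 24h. It gave 3 to 5, 1 to 2 and 0 to 2 separated genes at 24h, 4h and with ERKi at 4h. Smaller groups separate more easily, and shares over all features are not given for these counts, so they tell little about the members. Without read totals and with 3 libraries per condition, small differences in weak peaks cannot be resolved.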
